A study of Mus musculus with 6 samples.

Results

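Expression of 46 marker genes of macrophages, monocytes and antigen-presenting cells was examined in the left ventricular apex of 3 knockout mice and 3 control mice, of 18193 genes measured in all. The members are known markers of these cells, and a gene was used through the probe sets that the array annotation ties to that gene alone. In this way 45 of the 46 were measured, by 86 probe sets. The exception was Ly6c1, whose probe set is annotated to Ly6c2 as well. The members were placed in 4 groups: 15 markers of resident macrophages, 17 genes shared by macrophages and other myeloid cells (pan-myeloid), 8 measured genes of monocytes and scavenging macrophages, and 5 genes of MHC class II antigen presentation.

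All 6 mice were female littermates, 8 weeks old, of mixed C57B6 and B6129 background, and all received tamoxifen at 20 mg/kg. The knockout group (labelled PTIP KO) had 1 floxed and 1 null Paxip1 allele (the gene of PTIP), together with a transgene for Cre recombinase fused to a modified estrogen receptor, driven by the cardiomyocyte promoter of alpha myosin heavy chain. The control group (labelled PTIP+) carried a floxed and a wild-type Paxip1 allele, and no Cre transgene is named for it. Hearts were taken 5 days after tamoxifen, although another label describes 5 days of treatment. The induced deletion is limited to cells in which the promoter is active, and macrophages are not known to use it, whereas the null allele is carried by every cell of the knockout mice. Effects of the deletion, the null allele and the Cre transgene cannot be told apart in this design.

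Resident macrophages are a standing population of the heart, seeded before birth and partly renewed from blood monocytes. They take up dead cells and cell debris, depend on signalling through the receptor Csf1r, and are marked in the heart by genes such as Lyve1, Folr2, Timd4 and Cd163. Monocytes that enter from blood use the chemokine receptor Ccr2, and macrophages and dendritic cells that show antigen to T cells carry MHC class II molecules, whose genes are switched on by the coactivator Ciita.

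The values are log2 expression values, so a difference of 1 means a doubling, and a difference is always knockout minus control. The arrays were alike, with medians from 5.15 to 5.26 and correlations from 0.989 to 0.995 over all probe sets. On the 4 probe sets of Paxip1 all knockout mice lay below all controls, with differences from -1.83 to -0.95. Defining genes of cardiomyocytes had a mean between 13.16 and 13.21 in every mouse, as the tissue label implies. For actin, the excess of the 3' over the 5' control signal, a measure of RNA degradation, was 1.45 to 1.64 log2 units in knockouts and 1.17 to 1.85 in controls. It was highest in control 1 (1.85) and lowest in control 2 (1.17). In whole tissue, fewer cells of a type and less RNA per cell cannot be told apart.

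Most markers of macrophages read lower in the knockout ventricles, by small amounts, and none passed the test across all probe sets. Of the 45 measured members, 37 had a lower and 8 a higher mean in the knockout mice, with a median difference of -0.21, while 44.9% of all genes were lower and the median over all genes was 0.02. With limma, whose p-values were adjusted by the Benjamini-Hochberg method over 45037 probe sets, 0 of 45 members had an adjusted p under 0.05, against 0.286% of all genes. The smallest limma adjusted p of a member was 0.288. At an unadjusted limma p under 0.05 there were 10 lower members (22.2%) and 0 higher ones, against 3.8% of all genes that were lower and 5.47% that were higher at that p. All 3 knockout mice lay below all 3 controls for 12 members (26.7%), against 6.57% of all genes, and above all controls for 0 members, against 9.44%. These shares describe the list, and no test was made of the list as a whole. The members were chosen with earlier results of these data known, so the shares are not independent of the data. Dim members, with a mean at or below the median of all probe set means (5.19), were 10 of the 45, and differences of dim probe sets are compressed. The dim members were Timd4, Vsig4, Cx3cr1, Spi1, Trem2, Ccr2, Itgam, Clec4n, Marco and Ciita.

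**Figure D1:**
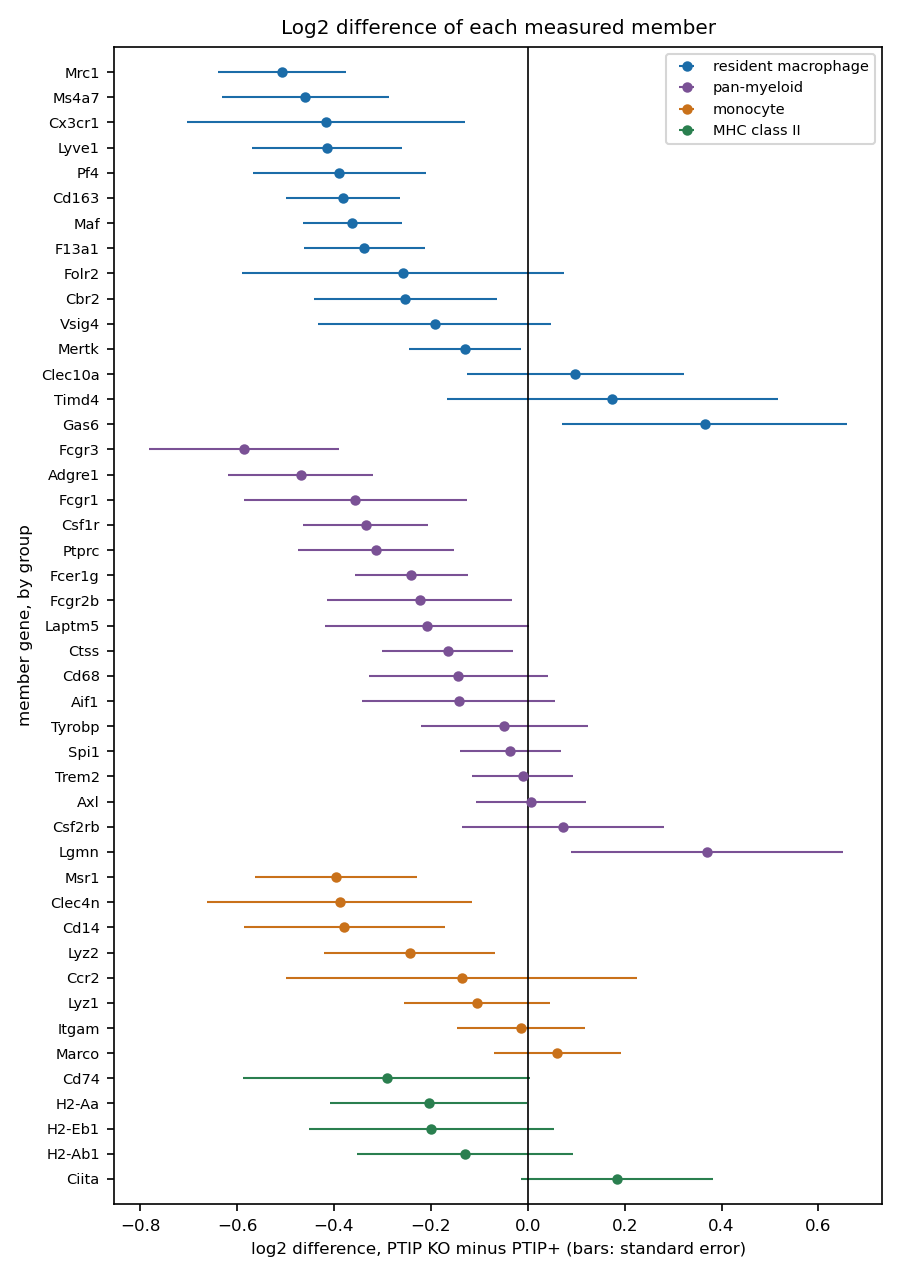
Log2 difference (knockout minus control, x axis) of the 45 measured members, ordered within their 4 groups, with the standard error from limma as bars (3 mice per group). Most points lie left of 0, from -0.59 for Fcgr3 to 0.37 for Lgmn.

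Resident macrophage markers made up 6 of the 10 members with an unadjusted limma p under 0.05. They were 6 of the 15 markers in that group (40%), all lower, against 3.8% of all genes lower at that p. In the same 6 genes all knockout mice lay below all controls, against 6.57% of all genes. Mrc1, the mannose receptor that takes up glycoproteins, read 9.16, 9.02 and 9.37 in knockouts 1 to 3 and 9.83, 9.64 and 9.60 in controls 1 to 3. The highest knockout thus lay below the lowest control, and Mrc1 was 1.42-fold lower (difference -0.51, SE 0.13, limma adjusted p = 0.288, exact permutation p = 0.1). An exact test of 3 against 3 mice cannot give less than 0.1, and it gave 0.1 for each gene below whose groups did not overlap.

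Maf, a transcription factor of macrophages that other cells also express, read 9.05, 9.03 and 9.18 in knockouts and 9.44, 9.46 and 9.45 in controls. The controls hardly differed from one another, and the difference was -0.36 (SE 0.10, limma adjusted p = 0.333). Of the 5 other Maf probe sets, 2 also had knockout mice that all lay below the controls, with differences of -0.31 and -0.93, while 3 lay between 0.00 and 0.06. Cd163, the scavenger receptor for haemoglobin bound to haptoglobin, read 8.83, 8.69 and 8.84 against 9.17, 9.31 and 9.04, a difference of -0.38 (SE 0.12, limma adjusted p = 0.381).

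Lyve1, a hyaluronan receptor of perivascular macrophages and of lymphatic endothelium, read 8.15, 8.48 and 8.62 against 8.66, 8.92 and 8.91. Knockout 3 and control 1 lay next to each other, and the difference was -0.41 (SE 0.15, limma adjusted p = 0.476). Its second probe set differed by -0.49, with overlapping groups. F13a1, the coagulation factor XIII A chain made by macrophages, read 9.64, 9.57 and 9.78 against 9.83, 10.02 and 10.14 (difference -0.34, SE 0.12, limma adjusted p = 0.473). Ms4a7, a membrane protein of tissue macrophages, read 6.46, 6.05 and 6.51 against 6.60, 7.05 and 6.75 (difference -0.46, SE 0.17, limma adjusted p = 0.485).

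**Figure D2:**
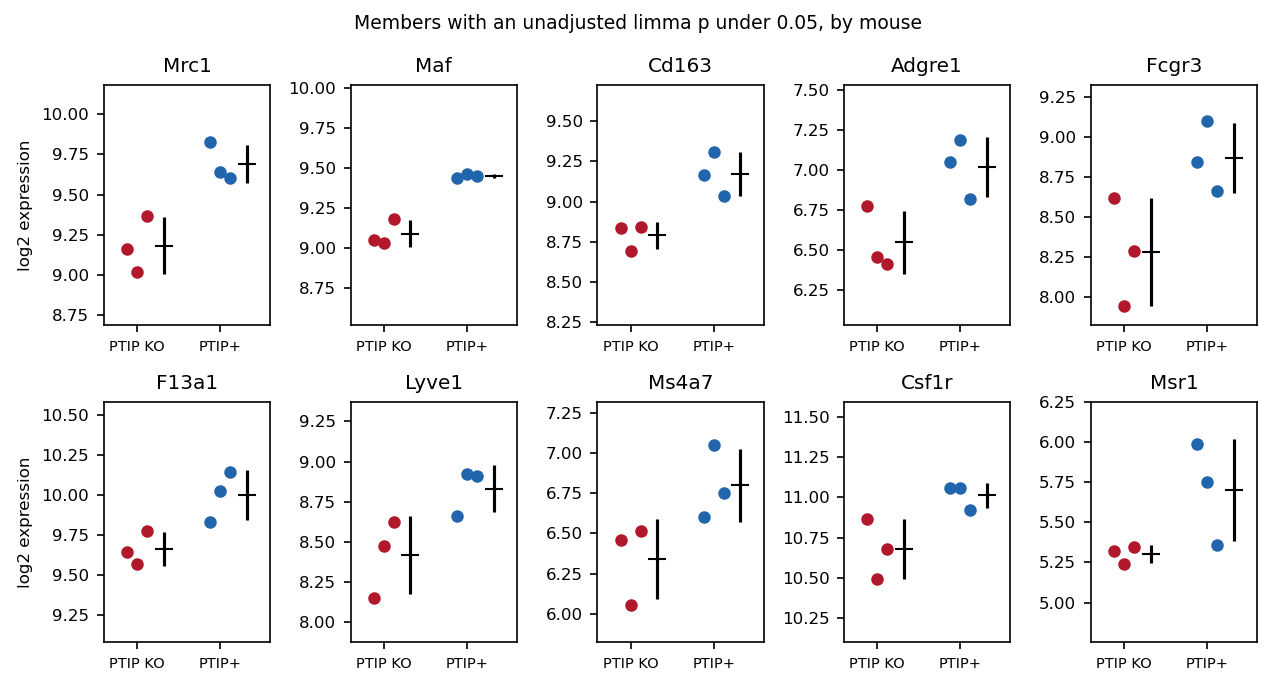
Log2 expression (y axis) in each mouse for the 10 members with an unadjusted limma p under 0.05, in order of that p, with knockout mice in red and controls in blue. Black marks give the mean and SD of 3 mice, each panel spans the same 1.5 log2 units, and in all 10 panels the knockout points lie below the control points, for Msr1 at 5.35 against 5.36.

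The other 9 resident macrophage markers had overlapping groups. Folr2, a folate receptor, read 8.80, 7.93 and 8.82 in knockouts and 8.14, 9.04 and 9.14 in controls. Knockout 2 and control 1 were the low mice, and the difference of -0.26 had a 95% interval from -1.04 to 0.52. Without knockout 2 the Folr2 difference was 0.04. Control 1 was also the low mouse for Timd4, a receptor for dying cells (4.23 against 5.14 to 5.66 in the other mice), for Gas6, the bridging ligand of Mertk and Axl (10.55 against 11.36 to 11.88), and for the lectin gene Clec10a (6.09 against 6.29 to 6.89). These 3 had differences of 0.17, 0.37 and 0.10 with all mice, and of -0.26, 0.02 and -0.11 without control 1. The remaining markers were all lower: the chemokine gene Pf4 by a difference of -0.39, the chemokine receptor gene Cx3cr1 by -0.42, the carbonyl reductase gene Cbr2 by -0.25, the complement receptor gene Vsig4 by -0.19, and Mertk, a receptor for the uptake of dying cells, by -0.13.

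Among pan-myeloid genes, 14 of 17 were lower, against 44.9% of all genes. Of the 17, 3 (17.6%) were lower at an unadjusted limma p under 0.05, against 3.8% of all genes: Fcgr3, Adgre1 and Csf1r. Fcgr3, a low-affinity receptor for IgG, read 8.62, 7.94 and 8.29 in knockouts and 8.84, 9.10 and 8.66 in controls. Knockout 1 lay just below control 3, and the knockout mean was lower (difference -0.59, SE 0.20, limma adjusted p = 0.424). Adgre1, which encodes the F4/80 antigen, read 6.77, 6.45 and 6.42 against 7.05, 7.19 and 6.82 (difference -0.47, SE 0.15, limma adjusted p = 0.405). Csf1r, the receptor for the growth factors Csf1 and Il34, read 10.87, 10.49 and 10.68 against 11.06, 11.06 and 10.92. Knockout 1 was again the knockout nearest to the controls, and the difference was -0.33 (SE 0.13, limma adjusted p = 0.501). The other Csf1r probe sets had differences of -0.38 and -0.36.

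Ptprc, the CD45 antigen of all leukocytes, read 6.46, 6.01 and 6.56 against 6.72, 6.58 and 6.67, with knockout 2 lowest (difference -0.31, SE 0.16, limma adjusted p = 0.641). Fcer1g, the shared signalling chain of several Fc receptors, also had groups that did not overlap, at a difference of -0.24. Cd68, a lysosomal glycoprotein, read 7.89, 7.26 and 7.83 against 7.66, 7.91 and 7.85, so that only knockout 2 stood below the rest. Its difference of -0.14 (95% interval -0.57 to 0.29) turned to 0.06 without that mouse. Fcgr1, the high-affinity IgG receptor gene, differed by -0.36, the inhibitory receptor gene Fcgr2b by -0.22, the lysosomal gene Laptm5 by -0.21, the protease gene Ctss by -0.17 and the cytoskeletal gene Aif1 by -0.14, all with overlapping groups. Tyrobp, an adaptor of activating receptors, and the lipid receptor gene Trem2 had differences of -0.05 and -0.01. The transcription factor gene Spi1, which encodes PU.1, differed by -0.04 and was dim at 4.85 to 5.02. Axl, a receptor of Gas6 that fibroblasts and vessels express too, differed by 0.01, the cytokine receptor gene Csf2rb by 0.07, and the protease gene Lgmn by 0.37, with control 1 lowest for Lgmn at 7.71. Without control 1 the Lgmn difference was 0.09, and without knockout 2 that of Laptm5 was -0.03 and that of Tyrobp 0.12.

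Upstream sequences of 3 members with an unadjusted limma p under 0.05 are shown because each holds GAGGAAG, a core that PU.1 and related factors can bind. Of the 45 measured members, 31 had an entry in the RefSeq promoter table (GRCm38.p6), with 37 promoters between them. The 250 bases before each start were searched on both strands, and GAGGAAG or its reverse complement CTTCCTC, in capitals here, was found in 12 of the 37 member promoters (11 genes) and in 10.6% of all 32851 promoters. It was also found before Axl, Cbr2, Fcgr1, Itgam, Laptm5, Marco, Pf4 and Trem2, none of which had an unadjusted limma p under 0.05. Among the other members at that p, Cd163 had an entry without GAGGAAG. Lyve1, Ms4a7, Maf, Adgre1, Csf1r and Msr1 had no match either, and a gene without an entry could have none. A match is a match of letters and not a measured binding site, and a link to the differences was not tested.
Mrc1 (chr2:14229164-14229413, plus strand): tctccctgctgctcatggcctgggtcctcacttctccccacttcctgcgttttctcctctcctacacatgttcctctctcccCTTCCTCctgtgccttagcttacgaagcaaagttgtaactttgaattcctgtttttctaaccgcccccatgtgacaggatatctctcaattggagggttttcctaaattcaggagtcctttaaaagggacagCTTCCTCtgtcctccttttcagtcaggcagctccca
F13a1 (chr13:37050245-37050494, minus strand): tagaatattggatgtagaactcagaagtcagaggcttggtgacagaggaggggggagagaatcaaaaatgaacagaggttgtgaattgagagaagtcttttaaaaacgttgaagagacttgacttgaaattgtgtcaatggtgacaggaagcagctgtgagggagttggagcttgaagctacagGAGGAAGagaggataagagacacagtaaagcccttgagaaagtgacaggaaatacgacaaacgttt
Fcgr3 (chr1:171059404-171059653, minus strand): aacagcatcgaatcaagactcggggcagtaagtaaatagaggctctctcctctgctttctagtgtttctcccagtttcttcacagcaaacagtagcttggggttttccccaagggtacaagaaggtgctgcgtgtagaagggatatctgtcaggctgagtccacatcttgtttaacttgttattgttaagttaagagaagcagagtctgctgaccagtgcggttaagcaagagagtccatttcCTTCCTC

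Of the 8 measured monocyte and scavenger genes, 7 were lower, against 44.9% of all genes, and 4 were dim. Only 1 of the 8 (Msr1) was lower at an unadjusted limma p under 0.05, against 3.8% of all genes. Msr1, a scavenger receptor for modified lipoproteins, read 5.32, 5.24 and 5.35 in knockouts and 5.99, 5.75 and 5.36 in controls. Control 3 lay just above the highest knockout, and the difference was -0.40 (SE 0.17, limma adjusted p = 0.545). The other Msr1 probe sets, all dim, had differences of 0.22, 0.05 and -0.10. Ccr2, the receptor by which monocytes leave the blood, read 5.34, 3.76 and 4.29 against 4.52, 4.47 and 4.80, so that the highest and the lowest mouse were both knockouts. Its difference of -0.14 had a 95% interval from -0.98 to 0.71, and it was 0.22 without knockout 2.

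Lyz2, the lysozyme gene of macrophages and other myeloid cells, read 11.18, 10.62 and 11.10 against 11.01, 11.33 and 11.30 (difference -0.24, 95% interval -0.66 to 0.17), with knockout 2 lowest. Without knockout 2 the Lyz2 difference was -0.07. Its near-identical neighbour Lyz1 differed by -0.11 on a probe set whose suffix (_x_at) marks probes that may also bind related transcripts. The Lyz1 probe set without that suffix read only 2.02 to 2.46, so the bright Lyz1 values cannot be assigned to Lyz1 alone. The probe sets used for Laptm5 and H2-Aa carry the same suffix, and the other bright Laptm5 probe sets differed by -0.11 and -0.22. Cd14, a coreceptor for bacterial lipopolysaccharide, differed by -0.38 with overlapping groups. Clec4n, a lectin receptor gene, differed by -0.39, with control 1 alone apart, which read 5.08 where the other mice read 3.93 to 4.09. Without control 1 the Clec4n difference was -0.04. The integrin gene Itgam and the scavenger receptor gene Marco were dim, at 2.52 to 2.95 and 3.14 to 3.51, and differed by -0.01 and 0.06.

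The MHC class II genes varied widely among mice of the same group. An unadjusted limma p under 0.05 was reached by 0 of 5, against 3.8% of all genes lower and 5.47% higher. Cd74, the invariant chain that guides class II molecules to the endosome, read 11.59, 10.44 and 10.86 in knockouts and 10.90, 11.45 and 11.42 in controls. H2-Aa, the alpha chain of the I-A molecule, read 9.24, 8.51 and 8.87 against 8.90, 9.01 and 9.31. H2-Ab1, its beta chain, read 9.20, 8.29 and 8.71 against 8.78, 8.78 and 9.02. In all 3 genes knockout 2 was the lowest mouse, and knockout 1 was the highest except for H2-Aa, where control 3 was. H2-Eb1, the beta chain of the I-E molecule, followed the same order at its ends, with 9.62, 8.69 and 8.95 against 8.99, 9.33 and 9.53. The differences of these 4 genes lay between -0.29 and -0.13, with 95% intervals that reached from -0.98 to 0.40 for Cd74 and from -0.65 to 0.39 for H2-Ab1. Without knockout 2, Cd74 differed by -0.03, H2-Aa by -0.02, H2-Ab1 by 0.09 and H2-Eb1 by 2.04e-05. Without knockout 1 the 4 differences lay between -0.61 for Cd74 and -0.36 for H2-Ab1. Ciita, the coactivator of these genes, was dim at 3.66, 3.64 and 3.46 against 3.50, 2.97 and 3.74 (difference 0.18), and control 2, not knockout 2, was its lowest mouse. The other bright H2-Aa probe sets differed by 0.05 and -0.12.

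Class II promoters share a short array of elements that includes the Y box, which the factor NF-Y reads as CCAAT. The sequences before the starts of H2-Aa and H2-Eb1 are shown with CCAAT, or ATTGG where it lies on the other strand, in capitals. ATTGG begins at position -48 in H2-Aa and -59 in H2-Eb1, counted back from the start, and H2-Eb1 has CCAAT at -35 as well. By letters alone the motif is common, in 33.8% of all promoters and in 13 of the 37 member promoters. A link of the motif to the differences was not tested.
H2-Aa (chr17:34287824-34288073, minus strand): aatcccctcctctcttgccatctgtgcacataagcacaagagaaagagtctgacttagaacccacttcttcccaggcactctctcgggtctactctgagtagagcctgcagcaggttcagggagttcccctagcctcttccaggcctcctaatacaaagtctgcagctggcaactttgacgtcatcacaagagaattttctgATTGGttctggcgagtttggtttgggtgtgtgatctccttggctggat
H2-Eb1 (chr17:34305617-34305866, plus strand): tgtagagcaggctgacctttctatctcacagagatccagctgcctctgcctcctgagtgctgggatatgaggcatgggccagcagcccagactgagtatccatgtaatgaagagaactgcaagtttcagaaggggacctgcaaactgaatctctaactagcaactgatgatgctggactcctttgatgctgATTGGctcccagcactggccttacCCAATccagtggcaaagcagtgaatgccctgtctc

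Averaged over each group of markers, the mice overlapped between knockout and control in every group. The resident macrophage mean was 7.95, 7.68 and 7.95 in knockouts 1 to 3 and 7.83, 8.22 and 8.22 in controls 1 to 3, a difference of -0.23. Control 1 lay within the knockout range, and without it the difference was -0.36. The pan-myeloid mean was 7.84, 7.43 and 7.62 against 7.74, 7.86 and 7.80 (difference -0.17), with knockout 1 among the controls. The monocyte mean was 6.29, 5.90 and 6.15 against 6.40, 6.32 and 6.22 (difference -0.20). The class II mean was 8.66, 7.91 and 8.17 against 8.21, 8.31 and 8.60 (difference -0.13), and its highest and lowest mice were knockouts 1 and 2.

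**Figure D3:**
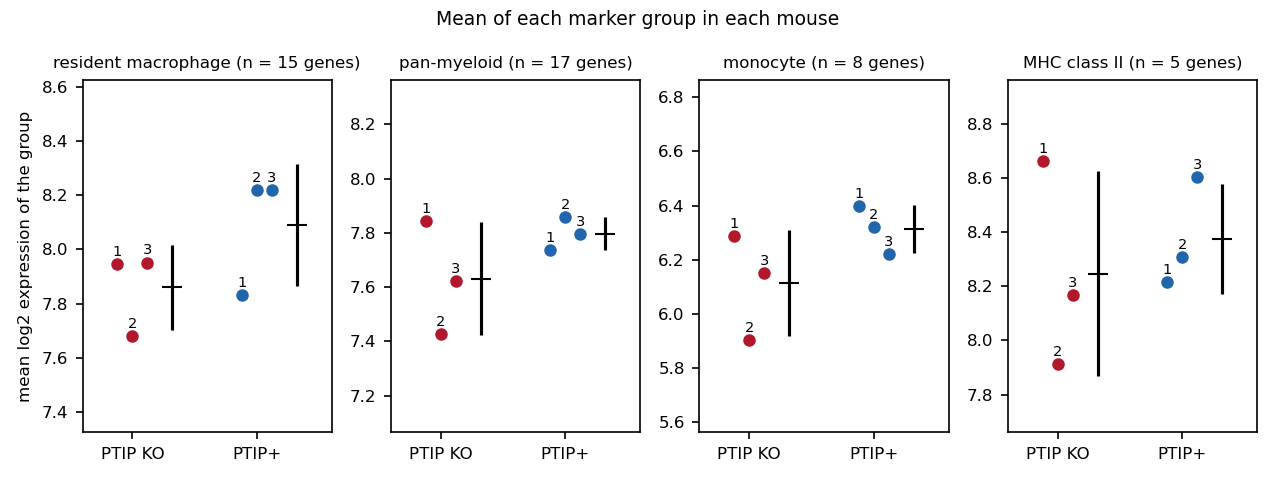
Mean log2 expression (y axis) of the measured members of each group in each mouse, with the mouse number at each point, knockouts in red, controls in blue, and the mean and SD of 3 mice in black. Each panel spans 1.3 log2 units. Knockout 2 is the lowest point in all 4 panels, and control 1 lies among the knockouts for the resident macrophage markers.

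Knockout 2 was the lowest of the 6 mice in all 4 means and for 29 of the 45 members (64.4%), whereas it was the lowest mouse for 14.5% of all genes. Without knockout 2 the means differed by -0.14 for resident macrophage, -0.06 for pan-myeloid, -0.09 for monocyte and 0.04 for class II genes. In that fit 30 of 45 members were lower, against 44.8% of all genes. Leaving out 1 mouse at a time turned the sign of 17 members, 11 lower and 6 higher with all mice, and 26 of the other 28 were lower throughout. Without knockout 2, the members lower at an unadjusted limma p under 0.05 were 3, Mrc1, Cd163 and Maf, against 3.02% of all genes. Without control 2 they were 2, Mrc1 and Maf, against 3.44% of all genes. Without knockout 1, which lay high for class II genes, they were 15, against 3.37% of all genes. They were 8 without knockout 3, 11 without control 1 and 7 without control 3, against 3.35%, 3.69% and 3.27% of all genes. Mrc1 and Maf kept that p in each of the 6 fits that left out 1 mouse. Knockouts 1 and 2 also differ from the other mice in the leading digits of the number in their description. Among the 4 mice that share those digits (knockout 3 and the controls), Adgre1 and Fcgr3 alone were lower at that p, against 2.07% of all genes, and the lone knockout was assumed to vary like the controls.

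**Figure D4:**
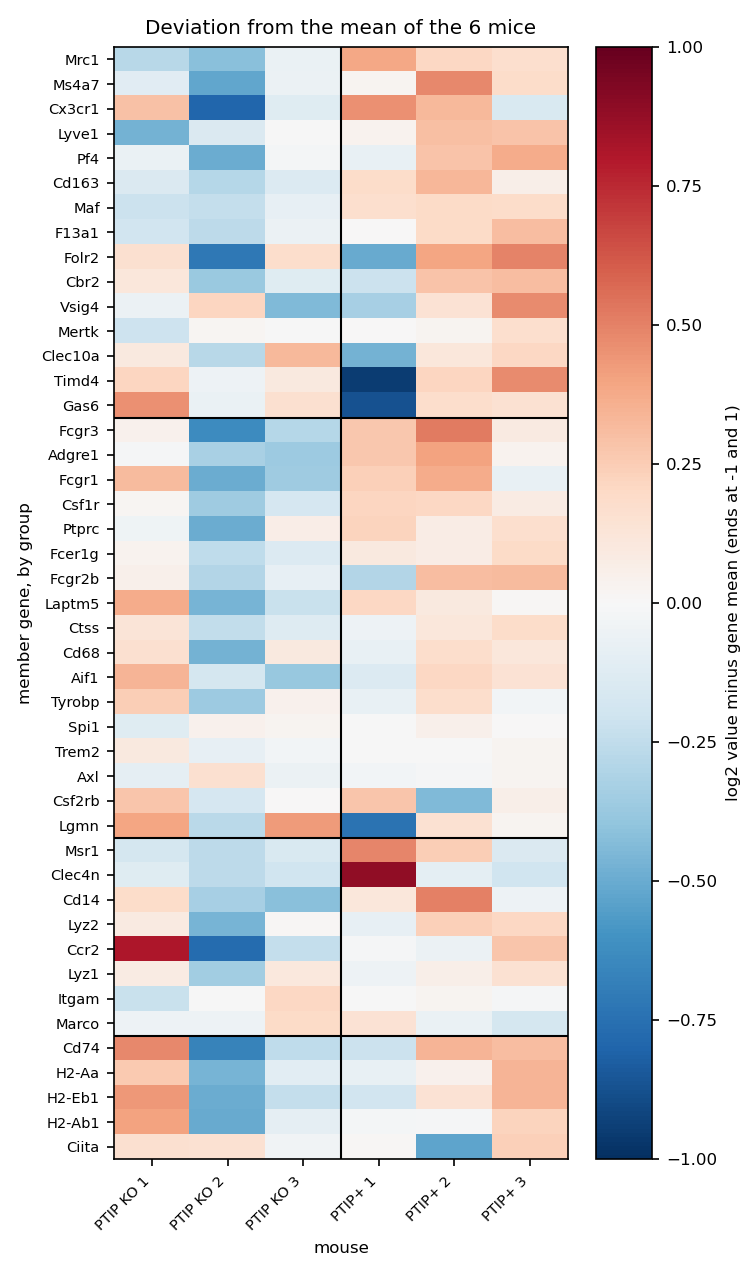
Deviation of each mouse (columns) from the mean of the 6 mice, in log2 units, for the 45 measured members (rows) in their 4 groups, blue for lower and red for higher. The largest deviation is 0.95. The column of knockout 2 is blue for most genes, and control 1 is blue for Timd4, Gas6, Lgmn and Folr2, unlike the other controls.

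Genes around the members were taken from 4 further lists. Among growth factors, chemokines and cytokines, 0 of 25 passed the limma test over all probe sets, against 0.286% of all genes. Their signs were mixed, with 13 means lower and 12 higher in the knockout mice, while 44.9% of all genes were lower. A limma p under 0.05 before adjustment was found for 3 lower genes and 1 higher gene. The shares among all genes were 3.8% and 5.47%. Csf1, the growth factor that binds Csf1r, had the smallest p of that list, with 8.10, 8.05 and 8.28 in knockouts and 8.79, 8.78 and 8.73 in controls. The groups stood well apart (difference -0.63, SE 0.11, limma adjusted p = 0.119), and the Csf1 difference lay between -0.70 and -0.58 whichever mouse was left out. The other Csf1 probe sets were lower by differences of -0.48, -0.20 and -0.12. The chemokine genes Ccl9 and Ccl24 differed by -0.52 and -0.35, and Cxcl10, a chemokine induced by interferon, was higher by 0.96 and dim. None of these 4 genes passed.

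Of 29 other phagocyte genes, 22 were lower, against 44.9% of all genes. Unadjusted limma p was under 0.05 for 5 lower and 1 higher, against 3.8% and 5.47% of all genes. Only 1 passed, against 0.286% of all genes. Slc40a1, the iron exporter ferroportin, which iron-recycling macrophages and cardiomyocytes both use, fell from 9.87 ± 0.19 to 8.86 ± 0.09 (SD, n = 3 each, difference -1.01, limma adjusted p = 0.0484). Its second probe set differed by -1.18 (limma adjusted p = 0.182). The Slc40a1 call ended without any 1 of the 6 mice, with differences from -1.07 to -0.90 and limma adjusted p from 0.0882 to 0.214, and in the 4 mice of like description number (difference -0.92, limma adjusted p = 0.873). Syk, a kinase that acts below Fc receptors, read 9.41, 9.12 and 9.29 against 8.46, 8.54 and 8.52 (difference 0.77, limma adjusted p = 0.0743), opposite in sign to Fcgr3. Of its other probe sets, 1 differed by 0.71 and 2 by 0.05 and 0.08. C5ar1, a complement receptor gene, and Cd53, a tetraspanin gene of leukocytes, differed by -0.50 and -0.48, without overlap of the groups.

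Among class II loading genes and regulators, 0 of 17 passed the limma test. By mean 9 were lower and 8 higher, while 44.9% of all genes were lower. An unadjusted limma p under 0.05 was reached by 1 higher and 0 lower genes, against 5.47% and 3.8% of all genes. Rfx5, a DNA-binding subunit of the complex at class II promoters, was higher in all knockout mice by a difference of 0.44 (limma adjusted p = 0.389), while Cd74, H2-Aa, H2-Ab1 and H2-Eb1 had differences below 0. Icam1, Rfxank and the protease gene Ctsd had differences of 0.36, 0.15 and 0.14. Of 14 myeloid transcription factors 0 passed the limma test. Lower at an unadjusted limma p under 0.05 were 2, and higher 0, against 3.8% and 5.47% of all genes. Those with the smallest p were Cebpb, with a difference of -0.59, Irf4 (-0.55), Zeb2 (0.18) and Stat6 (0.17).

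Markers of other cells were averaged per mouse in the same way. Over 11 T and NK cell genes, all dim, knockouts 1 to 3 averaged 4.50, 3.63 and 3.60, and controls 1 to 3 averaged 3.72, 3.54 and 3.82. Knockout 1 was thus highest, as it was for Cd74, H2-Ab1 and H2-Eb1. The mesothelial mean, over 5 genes, was 6.18, 5.24 and 7.52 against 7.34, 7.38 and 6.38, and so was lowest in knockout 2, as the 4 member groups were. The part of these cells in the member values was not tested. Blood endothelial genes lay between 9.80 and 9.97 in the knockout mice and between 9.74 and 10.06 in the controls, a difference of 0.00 over 12 genes. Lymphatic endothelial genes other than Lyve1 had a mean of 8.90 to 9.09 against 8.89 to 9.24. Fibroblast genes lay at 10.53 to 10.69 against 10.50 to 10.69, and mural cell genes at 9.76 to 10.02 against 9.69 to 9.90.

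Among blood cells, the means in the knockout and control mice were 4.44 to 4.61 and 4.28 to 4.61 for B cells, 3.83 to 4.38 and 3.74 to 4.29 for neutrophils, 4.89 to 5.30 and 4.78 to 5.02 for mast cells, 4.30 to 4.35 and 4.12 to 4.42 for dendritic cells, and 4.87 to 5.51 and 4.94 to 5.83 for the 3 measured erythroid genes. The 2 measured Schwann cell genes had 5.67 to 6.22 and 5.66 to 5.74. In the 13 cell type lists 0 genes passed the limma test over all probe sets. Each of these lists held 2 to 12 measured genes. At most 1 gene per list, 5 in all, had an unadjusted limma p under 0.05, against 3.8% of all genes lower and 5.47% higher. They were Ighm, Itgae, Ncr1 and Sox10, higher, and Hba-a1, lower. Itgae, Ncr1 and Hba-a1 were dim, and Hba-a1 read only 1.80 to 2.33. Ighm, the constant region of the IgM heavy chain, had the smallest p of the 5 (difference 1.00, limma adjusted p = 0.103). It read 8.29, 8.40 and 7.91 against 6.96, 7.32 and 7.30. Cd79b, a partner of IgM on B cells, was dim and differed by -0.46.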

How the data were processed

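RNA of the left ventricular apex of 6 mice was measured on Affymetrix arrays, 1 per mouse. The deposited values are log2 expression values that the authors made with RMA (background correction, normalization between arrays, summary by probe set), according to the tools named in the submitters' processing notes. Which release of the RMA software was run is not given in the sources. Values run from 1.36 to 14.3, and from this the log base was taken to be 2. Target was labelled with a NuGen amplification kit, per the labels' protocols. Such normalization hides a change in total RNA, and RMA compresses dim values.

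Of 45101 probe sets, 64 controls were left out and 45037 tested. The annotation names 1 gene for 34945, several for 932, and does not list 9160. Symbols were updated by Entrez identifier through a RefSeq table (GRCm38.p6). Each gene was represented by its probe set with the highest mean over the 6 arrays, giving 18193 genes.

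The test was limma 3.58.1 (R 4.3.3) with lmFit, eBayes and group as the only term, two-sided, after a check on simulated data. P-values were adjusted over all tested probe sets, and under 0.05 passed. Precision is limited by the number of mice, and the median standard error of a difference was 0.147. The mice are labelled as separate animals.

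The rule for named genes was every member, with values per mouse for 16 defining members (Ly6c1, one of them, was not measured) and for any with an unadjusted p under 0.05, and up to 4 genes with the smallest p of each other list. Members and lists were chosen with earlier results of these data known. Of 197 genes on the 17 other lists, 180 were measured. Alternatives covered renewed quantile normalization, filters on dim probe sets, array weights, centring of arrays, a trended or robust prior, the mean of a gene's probe sets, each mouse left out, and a block for replicate number.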

Additional observations from a re-analysis of the deposited data

How the results depend on the processing

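No member passed the limma test in any of the 17 alternatives in which that count was made, an adjusted p under 0.10 included, and the median difference of the members stayed below 0 in all in which it was computed, from -0.35 without knockout 1 to -0.08 without knockout 2. The number of lower members at an unadjusted limma p under 0.05 (10) ranged from 2 to 15 when 1 mouse was left out, was 2 in the mice whose description number starts alike, and lay between 7 and 12 in the other alternatives. Same-numbered mice did not deviate together (correlations of deviations -0.15, -0.08 and -0.01). The replicate block gave 7 such members, and with it Slc40a1 did not pass (limma adjusted p = 0.204). For the replicate block and the other alternatives that kept all mice, the share of all genes at the unadjusted p was not computed. With 1 mouse left out, the means differed by -0.36 to -0.14 (resident macrophage), -0.27 to -0.06 (pan-myeloid), -0.29 to -0.09 (monocyte) and -0.33 to 0.04 (class II). With 1 mouse left out, 17 of the 45 members turned in sign, none of which had passed (values for every member were added after the data were seen). Of the 20 members run under all alternatives these were Ccr2 (-0.57 to 0.22), Cd68 (-0.26 to 0.0568), Folr2 (-0.57 to 0.0375), H2-Ab1 (-0.36 to 0.0898), H2-Eb1 (-0.47 to 2.04e-05) and Ciita (-0.0329 to 0.35), and in the 4 mice with like numbers Cd68 (0.0265) and Folr2 (0.0455) turned. The causes were not tested. Slc40a1, examined this way after its value was seen, also missed the threshold with a robust prior (limma adjusted p = 0.0532), without probe sets below the 25th percentile of level (limma adjusted p = 0.0512) and with centred arrays (limma adjusted p = 0.0511). Dim probe sets, such as those of Ciita, Itgam and Marco, limit what can be seen of those genes.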
